A study of Mus musculus with 74 samples.

Results

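The sorted sensory neurons described here came from L4 dorsal root ganglia (DRG) of mice killed 1 day after a spinal cord injury (SCI), and were set against the same neurons from naive mice. The members were taken by their sample titles, without use of any measured value: 12 wells of 4 mice with SCI and 18 wells of 6 naive mice, out of 66 sorted wells of 22 mice and 74 libraries in the series. The titles of naive mice 1, 2 and 5 name day 1, and those of naive mice 3, 4 and 6 name day 3. All of these mice were females of the Thy1YFP16 strain, 10 to 20 weeks old, in which a Thy1 promoter drives a yellow fluorescent protein (YFP) in large DRG neurons whose axons ascend the cord. The injury was a transverse cut through the dorsal column at T9/10, which severs those ascending axons far from their cell bodies. Ganglia were dissociated with papain and collagenase, and about 100 YFP-positive cells were sorted into each of 3 wells per mouse. Because the wells of a mouse are technical replicates, their read counts were summed, and the mouse was the replicate. No sham-operated mice are described, so anesthesia, analgesia and surgery cannot be told apart from the lesion of the cord. Where named, the groups 1 day after sciatic nerve injury (SNI 1d, 4 mice) and 3 days after SCI (SCI 3d, 4 mice) were sorted in the same way. A further 4 injured and 4 uninjured wild-type C57BL/6 females, 10 to 12 weeks old, gave whole L4 DRG libraries 1 day after SCI.

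DRG neurons send 1 axon branch to the periphery and another into the spinal cord. A cut of the peripheral branch starts a growth program led by transcription factors such as ATF3, JUN and SOX11, whereas a cut of the central branch is known for a weak one. Neurons also make cholesterol for their membranes from acetyl-CoA, through the mevalonate pathway and a chain of sterol enzymes, and the transcription factor SREBP-2 raises the genes of this chain when sterols in the endoplasmic reticulum are low.

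Reads on genes summed to 37759032 to 63688434 per mouse after SCI and to 47699504 to 74653760 in naive mice. The label names YFP-positive neurons, and 21 of the 30 wells were neuronal by their markers. In these 21 wells 10 pan-neuronal markers (Tubb3, Snap25, Nefh and others) took 1.41% to 4.10% of reads. The 9 markers of satellite glia and Schwann cells took 0.0669% to 0.553%. Pan-neuronal markers do not tell large-fibre from small-fibre neurons. The other 9 wells went against the label: glial markers took 3.81% to 6.96% of reads and pan-neuronal markers 0.0141% to 0.094%, and 10220 to 12250 genes were detected against 13450 to 18490. These glia-rich wells, set as those with at least 2% of reads on the glial markers, were 3 of 12 after SCI (1 each in mice 1, 2 and 3) and 6 of 18 in naive mice (1 each in mice 1 and 2, and 2 each in mice 5 and 6). Each comparison is therefore given over all wells and again without the glia-rich wells, and the remaining ones are called neuronal wells below. The summed share of 10 macrophage markers was at most 0.000405% after SCI and reached 0.111% in naive mice, with Cx3cr1 and C1qc at 0 after SCI; the part of these cells in the results was not tested. The 6 fibroblast markers took at most 0.0129% after SCI and up to 0.922% in naive mice, and in neuronal wells both lists stayed at or below 0.00953% in every mouse. In the neuronal wells the 12 large-fibre markers took 0.456% to 0.718% of reads after SCI and 0.0714% to 1.06% in naive mice, and the 10 small-fibre markers 0.027% to 1.26% and 0.0364% to 3.77%. The 9 glia-rich wells held 0.219% to 0.886% on the large-fibre list, within its range in the 21 neuronal wells. The summed share of this list thus does not by itself mark neurons. Most neuronal wells had more large-fibre than small-fibre reads, but some had the reverse. Among those were the only neuronal well of naive mouse 5 (3.77% small-fibre, 0.0714% large-fibre) and wells a (1.84%, 0.395%) and b (1.51%, 0.221%) of SCI mouse 4. In a pool of cells, fewer cells of a type and less RNA per cell cannot be told apart.

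**Figure D1:**
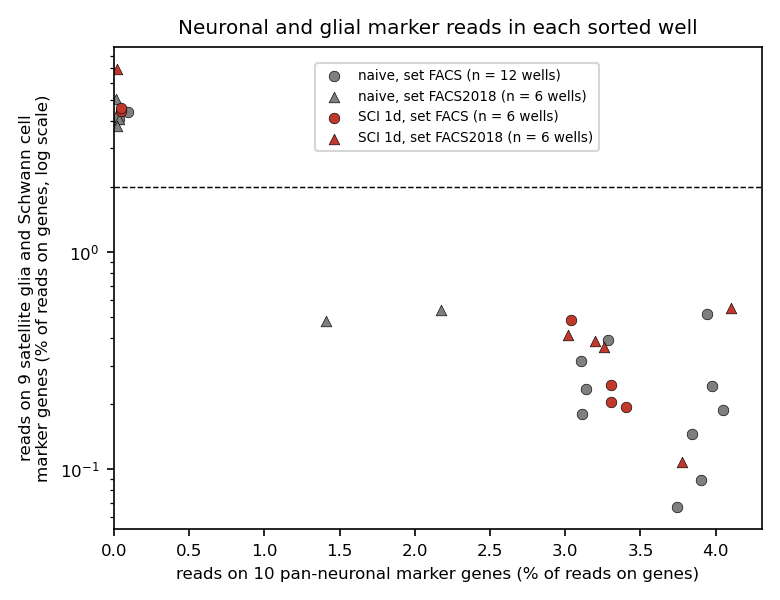
Each point is 1 sorted well; the horizontal axis gives the percent of reads on 10 pan-neuronal marker genes and the vertical axis, on a log scale, the percent on 9 satellite glia and Schwann cell marker genes. The dashed line marks 2%: the 9 wells above it, from both groups and both label sets, hold at most 0.094% pan-neuronal marker reads.

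Few genes passed the test. Over all wells, edgeR's quasi-likelihood test with Benjamini-Hochberg adjustment (adjusted p under 0.1) called 4 of 23507 genes higher after SCI (0.017%) and 0 lower (0.0%); DESeq2 with the same covariates called 773 higher (3.29%) and 450 lower (1.91%). At an unadjusted p under 0.05, 2556 genes were higher (10.9%) and 425 lower (1.81%). In neuronal wells, 41 of 22620 genes were called higher (0.181%) and 8 lower (0.0354%), and at an unadjusted p under 0.05 the numbers were 3479 (15.4%) and 481 (2.13%). The excess of higher genes moved with the covariates. The median log2 fold change of all genes in neuronal wells was 0.38 with 2 RUVr factors (estimates of unwanted variation) and -0.06 without them, where edgeR called 0 genes (0.0%), DESeq2 was not run, and 1172 genes were higher (5.18%) and 1001 lower (4.43%) at an unadjusted p under 0.05. It was 0.10 without naive mouse 5, whose only neuronal well had the lowest share of pan-neuronal reads, and 16 genes were then called. Without naive mouse 6, which also rests on 1 neuronal well, it was 0.11 and 283 genes were called. Of the 49 genes called in neuronal wells, 45 kept their sign without RUVr factors, 17 had mice that did not overlap between the groups (9 of the higher and 8 of the 8 lower), and 6 stayed under 1 CPM in every mouse. Here CPM of a mouse are counts per its total of reads on genes after TMM scaling, as in the fit. On plain totals without that scaling, 5 of the 8 lower genes and 11 of the 41 higher ones had mice that did not overlap. Over all genes, 116 (0.513%) were higher without overlap in neuronal wells and 52 (0.23%) lower, beside 85 (0.362%) and 50 (0.213%) over all wells. There are 210 ways to split 10 mice into 4 and 6. Labels without meaning would thus set at most about 1 gene in 210 apart in each direction, and these shares are close to that or below it. A lack of overlap, by which many genes named below were picked, is therefore a description only. With 4 against 6 mice the exact permutation test cannot give a two-sided p below 0.0095, and no gene passed it after adjustment over all genes (smallest adjusted p 1).

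Among the 8 genes that fell in neuronal wells, Hmgcs1, Msmo1 and Stard4 belong to cholesterol supply. On the TMM scale all 8 had lower values in each of the 4 mice with SCI than in any naive mouse. Hmgcs1 (ENSMUSG00000093930.2, GRCm38 chromosome 13, 119690379 to 119708260, plus strand) makes HMG-CoA, early in the mevalonate pathway. Msmo1 (ENSMUSG00000031604.10, chromosome 8, 64718139 to 64733792, minus strand) removes methyl groups from the sterol ring, and Stard4 (ENSMUSG00000024378.9) carries cholesterol between membranes.

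Hmgcs1 measured 373, 263, 484 and 349 CPM in the neuronal wells of the 4 mice with SCI, against a lowest value of 494.5, a median of 619 and a highest value of 2141 CPM in the 6 naive mice. On this scale every injured mouse lay below every naive mouse, SCI mouse 3 only just. On plain totals the groups overlapped, since Hmgcs1 stood at 523 CPM in SCI mouse 3 and at 405 and 502 CPM in naive mice 6 and 3. The log2 fold change was -1.0 (SE 0.21, adjusted p = 0.0887).

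Msmo1 measured 230, 144, 270 and 316 CPM after SCI, with a lowest, median and highest naive value of 318, 519 and 1258 CPM. Stard4 measured 10.4, 17.6, 10.5 and 23.4 CPM, with naive values of 25.6, 52.4 and 188.5 CPM. Again no injured mouse reached a naive one, but SCI mouse 4 lay close to the lowest naive value of both genes. Msmo1 fell by 1.16 on the log2 scale (SE 0.19, adjusted p = 0.0462) and Stard4 by 1.83 (SE 0.37, adjusted p = 0.0887). All 3 genes passed only in neuronal wells. Over all wells their log2 fold changes were -0.79 for Hmgcs1, -1.29 for Msmo1 and -1.57 for Stard4, with edgeR adjusted p of 0.292, 0.174 and 0.293. Leaving out SCI mouse 2, which had the lowest value of Hmgcs1 and Msmo1, ended all 3 calls in neuronal wells, as did leaving out SCI mouse 1 or 3. The calls of Hmgcs1 and Stard4 were also lost without naive mouse 5, and that of Hmgcs1 without SCI mouse 4 or naive mouse 2.

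The promoter of Hmgcs1 is shown because it is a textbook target of SREBP factors and the first pathway gene that fell. It is the 250 bases before the RefSeq start (GRCm38.p6, chr13:119690101-119690350, plus strand), with the letters of a sterol regulatory element in capitals, whose first base lies 137 bases before the start.
Hmgcs1: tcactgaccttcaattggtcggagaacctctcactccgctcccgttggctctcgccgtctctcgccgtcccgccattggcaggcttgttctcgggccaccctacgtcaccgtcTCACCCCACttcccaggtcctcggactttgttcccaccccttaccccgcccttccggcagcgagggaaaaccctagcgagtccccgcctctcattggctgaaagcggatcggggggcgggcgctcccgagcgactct
The letters searched, TCACNCCAC on both strands, occur in 408 of 32851 RefSeq promoter windows (1.24%), each running from 250 bases before to 50 after a start. Among the 42 of 56 genes of the 3 sterol lists that had a window, Hmgcs1 was the only match; among the genes named here Chrnb4 also had one. The letters TGACGTCA, bound by CREB and ATF factors, occur in 1.79% of windows, and among the genes named here in those of Mrpl49 and Errfi1. The AP-1 letters TGACTCA occur in 5.2% of windows, here in those of Acer3, Msmo1, Dhcr7 and Mt2. The motifs of a sterol element were added after the values were seen, and a match describes letters, not binding.

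Read along the pathway, the values in neuronal wells were low over most of its length. Of 19 genes from Acat2 to Dhcr7, picked by hand to follow the pathway, 17 had a log2 fold change below 0 in neuronal wells. Over all wells it was 17 as well, and the shares of all genes tested were 34.5% and 41.3%. The whole mevalonate list, given below, was less uniform than this choice. In the upper, mevalonate part, values for enzymes that did not pass the test were -1.55 for Mvd, which makes isopentenyl diphosphate, -1.15 for its isomerase Idi1, -0.86 for the farnesyl diphosphate synthase Fdps and 0.51 for the mevalonate kinase Mvk. The whole list of 21 mevalonate and terpenoid genes had 11 below 0 and 2 called lower, against 34.5% and 0.0354% of all genes. At an unadjusted p under 0.05, 5 were lower and 2 higher, against 2.13% and 15.4% of all genes. The median was -0.06, which is -0.44 relative to all genes.

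The sterol part beyond farnesyl diphosphate stood lower as a list. Of its 13 tested genes 11 were below 0 in neuronal wells, 9 of them at an unadjusted p under 0.05 against 2.13% of all genes. Of the 13, 1 was called lower (Msmo1), against 0.0354% of all genes. The median was -0.80, or -1.18 relative to all genes. Cyp51, the lanosterol demethylase, measured 48.2, 41.5, 56.3 and 52.1 CPM after SCI and 86.3, 115 and 137 CPM at the lowest, median and highest naive mouse. The groups did not overlap for Cyp51, yet it narrowly missed the threshold (log2 fold change -1.17, SE 0.27, adjusted p = 0.109). Leaving out 1 mouse at a time in neuronal wells gave Cyp51 an edgeR adjusted p of 0.0795 to 0.195. Sqle, the squalene epoxidase, measured 76.9, 60.1, 89.5 and 95.3 CPM against 53.0, 163 and 585 CPM, so that 1 naive mouse lay below all injured ones (-1.06, adjusted p = 0.119).

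Of the remaining sterol enzymes none passed the test over all wells or in neuronal wells with all mice kept. Their log2 fold changes were -0.74 for Fdft1, the squalene synthase, -1.0 for the ketoreductase Hsd17b7, -0.80 for the decarboxylating dehydrogenase Nsdhl, -0.75 for the desaturase Sc5d and -0.95 for the reductase Dhcr7. They were -1.04 for Tm7sf2 and -0.25 for Lbr, both C14 sterol reductases, and -0.79 for the isomerase Ebp. Lss, which closes the sterol ring, was at 0.44 and among the 2 genes of this list above 0. Without RUVr factors the sterol list's median in neuronal wells was -1.06, with 12 of 13 genes below 0 and 9 lower at an unadjusted p under 0.05. The label sets, called FACS and FACS2018 in the titles, gave -0.99 (13 of 13 below 0, 2 against 4 mice) and -0.77 (9 below 0, 2 against 2 mice). The median was -0.66 over all wells, with 3 genes at an unadjusted p under 0.05.

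**Figure D2:**
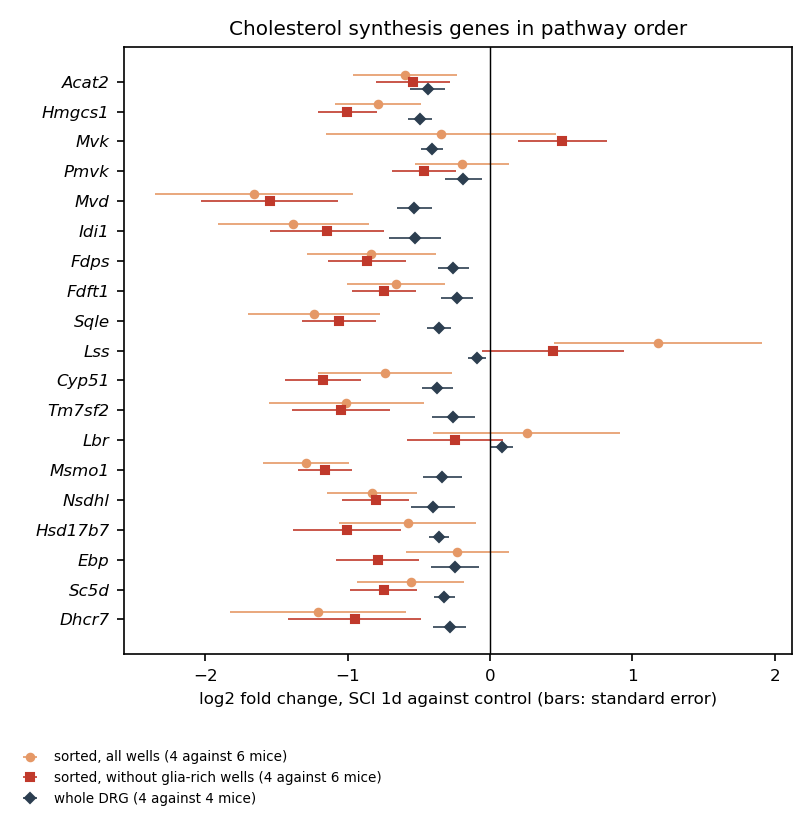
Log2 fold changes with standard errors of 19 cholesterol synthesis genes, picked by hand and shown from top to bottom in the order of the pathway. They are given for sorted neurons over all wells, sorted neurons without glia-rich wells and whole DRG. In neuronal wells 17 of the 19 values lie left of 0, and the whole DRG values lie left of 0 for 18 genes but mostly nearer to it.

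Genes that sense, take up or move sterols were less uniform. Of 21 tested, 12 were below 0 in neuronal wells (34.5% of all genes) and 3 of those at an unadjusted p under 0.05 (2.13% of all genes). Beside Stard4 these included Insig1, the sterol sensor that holds SREBP in the endoplasmic reticulum (-1.17, adjusted p = 0.193). The median of this list was -0.13, or -0.51 relative to all genes, and in the set FACS2018 alone it was 0.68.

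In fatty acid synthesis no gene passed the test over all wells or in neuronal wells with all mice kept. In the neuronal-well fits that left out 1 mouse, Fasn had an edgeR adjusted p of 0.0744 to 0.195. Whether Fasn passed thus depended on the mice and settings. Fasn, which makes palmitate, measured 24.7, 17.4, 19.1 and 9.61 CPM in neuronal wells after SCI, against 32.7, 42.6 and 96.8 CPM at the lowest, median and highest naive mouse. The groups did not overlap, and the log2 fold change was -1.57 (SE 0.37, adjusted p = 0.119). Over all wells the groups did overlap, with 33.2 and 51.6 CPM in injured mice 2 and 3 and -0.47 (SE 0.47, adjusted p = 0.754); the glia-rich wells held 59.7% of the Fasn CPM of the wells after SCI and 7.19% in naive mice. Scd2, a stearoyl-CoA desaturase, was at -0.69 (adjusted p = 0.129) and Elovl6, an elongase, at -1.14 (adjusted p = 0.204). Of the 32 genes of fatty acid synthesis, activation and elongation, 20 were below 0 in neuronal wells, with 5 lower and 3 higher at an unadjusted p under 0.05. Of all genes 34.5% were below 0, and 2.13% were lower and 15.4% higher at that p.

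**Figure D3:**
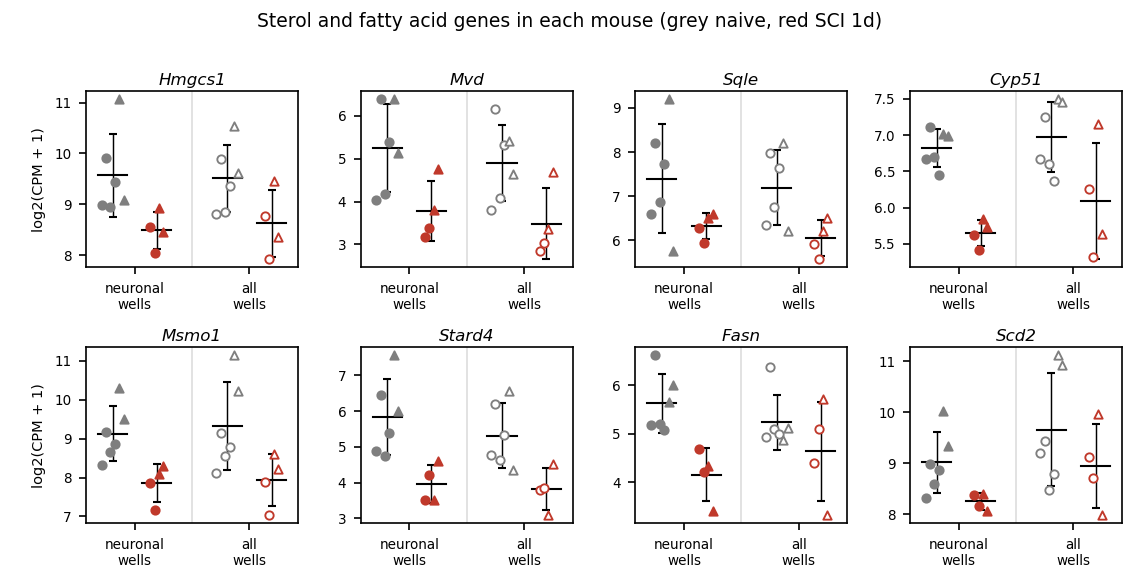
Log2(CPM + 1) of 6 sterol genes and 2 fatty acid genes in each mouse, without glia-rich wells (filled, left) and over all wells (open, right); circles are mice of the set FACS, triangles mice of FACS2018, and bars give the mean with its SD over 6 naive and 4 SCI mice. In neuronal wells the red points of Hmgcs1, Cyp51, Msmo1, Stard4 and Fasn lie below all grey points, and over all wells none of these genes separates the groups. CPM are TMM-scaled, and on plain totals Hmgcs1 overlaps.

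Further genes that fell in neuronal wells have no common role. Ccnc, the cyclin of the Mediator kinase module, measured 136, 127, 139 and 126 CPM against 162, 197 and 399 CPM (-0.66, adjusted p = 0.0887). Tmem205, a membrane protein, measured 68.4, 60.4, 52.3 and 67.3 CPM against 95.9, 118 and 249 CPM (-1.05, adjusted p = 0.0887). Over all wells both were without a call, at -0.95 and -0.83, and the groups again stayed apart, though for Tmem205 not on plain totals. Polr3k, a subunit of RNA polymerase III, was at -0.76 (adjusted p = 0.0787), but on plain totals its groups overlapped, with 138 CPM in SCI mouse 3 and 123 CPM in naive mouse 6. Called as well was Mrrf, a mitochondrial ribosome recycling factor (-0.88, adjusted p = 0.0962). Mrrf had the opposite sign, 0.12, over all wells, where 1 glia-rich well of SCI mouse 3 held 206 CPM of that well's own total, the scale of all values given for single wells. All 4 calls were lost without SCI mouse 1, 2 or 3 or naive mouse 5, those of Ccnc, Tmem205 and Mrrf also without SCI mouse 4, and that of Tmem205 without naive mouse 2.

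Among genes that rose, Cirbp, which encodes a cold-inducible RNA-binding protein, (ENSMUSG00000045193.13, chromosome 10, 80165985 to 80172786, plus strand) was 1 of 3 genes called in neuronal wells in 10 of 10 fits that left out 1 mouse. It measured 165, 134, 152 and 209 CPM in neuronal wells after SCI and 14.0, 63.5 and 75.8 CPM at the lowest, median and highest naive mouse. No naive mouse reached the injured ones. The log2 fold change was 1.61 (SE 0.26, adjusted p = 0.0462), and 1.32 to 1.72 in those 10 fits. Over all wells naive mouse 5 reached 136 CPM and the value was 1.32 (adjusted p = 0.2). The others of the 3 were 9330162G02Rik, given below, and the small nucleolar RNA host gene Snhg5, both chosen after their values were seen. Snhg5 measured 35.7, 27.6, 18.7 and 44.0 CPM in neuronal wells against 0.0866, 7.83 and 19.7 CPM, so that SCI mouse 3 lay below the highest naive mouse (2.76, adjusted p = 0.0462).

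Apod, a lipid-binding lipocalin made by glia and by neurons under stress, measured 1025, 1095, 240 and 610 CPM against 41.1, 104 and 237 CPM in neuronal wells. The injured mice lay above the naive ones, SCI mouse 3 only just. It rose by a log2 fold change of 2.60 (SE 0.50, adjusted p = 0.0663) and lost the call without SCI mouse 1 or 2 or naive mouse 5. In glia-rich wells the median of Apod was 23140 CPM after SCI and 1359 CPM in naive mice, and these wells held 90.0% and 89.6% of its CPM over wells. Satellite glia and Schwann cell markers took 0.221% to 0.402% of reads in the neuronal wells of injured mice and 0.147% to 0.539% in those of naive mice, and their part in the result was not tested.

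Plin4 (ENSMUSG00000002831.13, chromosome 17, 56100591 to 56109803, minus strand), which coats lipid droplets, was the gene with the smallest adjusted p over all wells. It had 2178, 1841, 5520 and 294 reads in the 4 mice with SCI, which is 52.1, 43.7, 116 and 4.42 CPM, and 0, 0, 0, 0, 1 and 3 reads in the 6 naive mice (adjusted p = 0.000159). The groups were far apart and the call held in 10 of 10 fits that left out 1 mouse, but most reads came from glia-rich wells. The 3 glia-rich wells after SCI had 254 to 349 CPM and held 95.5% of the Plin4 CPM over wells, while all 6 glia-rich wells of naive mice had 0. Neuronal wells of injured mice held 9.17, 1.46, 0.356 and 4.71 CPM against at most 0.26 CPM (adjusted p = 0.0663), with 12 to 295 reads per mouse, a call lost without SCI mouse 1 or 2 or naive mouse 2. No fold is given, since the naive mice were at 0 to 3 reads.

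The remaining 3 genes called over all wells were less even. Fmo5, a flavin-containing monooxygenase, measured 3.45, 33.4, 46.8 and 3.05 CPM against 0 to 1.19 CPM (log2 fold change 6.73, adjusted p = 0.0926), and 3.95, 3.25, 3.74 and 3.26 CPM against 0 to 1.21 CPM in neuronal wells (3.55, adjusted p = 0.119). Its groups stayed apart either way, and leaving out 8 of the 10 mice 1 at a time ended the call. Chrnb4, a nicotinic receptor subunit, had reads almost only in SCI mouse 4 (2950 reads, 44.4 CPM) and naive mouse 5 (1854 reads, 46.7 CPM), so the groups overlapped and its call (adjusted p = 0.0523) does not describe a difference between them; the exact two-sided permutation p was 0.667. Il15, a cytokine, had 193 reads in SCI mouse 4 and 0 to 2 in the other injured mice, with 0 in all naive mice (adjusted p = 0.0926).

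**Figure D4:**
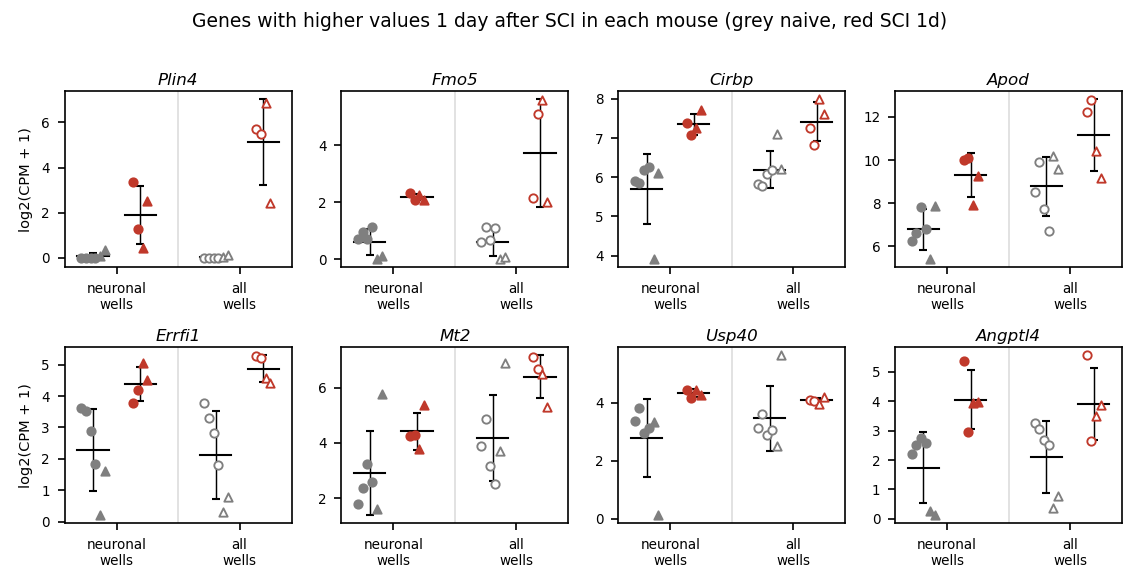
Log2(CPM + 1) of 8 genes with higher values after SCI in each mouse, without glia-rich wells (filled, left) and over all wells (open, right); circles are mice of the set FACS, triangles mice of FACS2018, and bars give the mean with its SD. On this TMM scale Cirbp, Apod and Usp40 separate the groups in neuronal wells but not over all wells, and for Plin4 the open red points of 3 of the 4 mice stand well above the filled ones.

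Further genes that rose in neuronal wells with no overlap between the groups were Usp40, a deubiquitinase (20.8, 17.1, 20.4 and 18.4 CPM against 0.0866 to 13.1 CPM, log2 fold change 2.01), Nr2c2, an orphan nuclear receptor (28.8, 28.0, 40.2 and 30.5 CPM against 0.26 to 24.0 CPM, 1.79), and Cib1, a calcium- and integrin-binding protein (8.45, 4.80, 20.7 and 19.3 CPM against 0.0866 to 4.48 CPM, 3.48). Hoxc8, a homeobox factor (3.84), and the unnamed Gm44152 (3.27) reached at most 35.0 and 12.9 CPM in the injured mice. All 5 had an adjusted p of 0.0663, and each had its lowest naive value in naive mouse 5 or 6, which rest on 1 neuronal well each. Usp40, Nr2c2 and Hoxc8 lost their calls without SCI mouse 1, 2 or 3, Gm44152 without SCI mouse 1 or 2, and Cib1 without SCI mouse 3. Of the naive mice, mouse 5 ended the calls of Nr2c2, Hoxc8 and Gm44152 and mouse 6 those of Usp40 and Nr2c2. The lncRNA 9330162G02Rik, chosen after its values were seen, had the smallest adjusted p in neuronal wells (0.00273, log2 fold change 2.17, SE 0.25). It measured 282, 138, 62.3 and 67.6 CPM against 0.101, 44.8 and 89.6 CPM, so the mice overlapped, and without naive mouse 5 the value was 1.23, still called.

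Genes of hormone and metal response were mostly not called. Errfi1, an inhibitor of the EGF receptor, measured 12.7, 17.4, 32.2 and 21.8 CPM against 0.151, 4.54 and 11.2 CPM without overlap (2.5, adjusted p = 0.105). Angptl4, a secreted inhibitor of lipoprotein lipase, measured 40.3, 6.81, 14.4 and 14.7 CPM against 0.0866 to 5.79 CPM, also without overlap (3.23, adjusted p = 0.109). Mt2, a metallothionein, had a value of 1.82 (adjusted p = 0.116) with 52.9 CPM in its highest naive mouse, above all injured ones. Of 19 tested genes of a list of glucocorticoid-responsive genes, 11 were above 0 in neuronal wells, against 65.5% of all genes. Of these, 6 were at an unadjusted p under 0.05 against 15.4% of all genes, and 1 was called (Plin4), against 0.181% of all genes. Without RUVr factors 2 genes of the list were higher at that p, against 5.18% of all genes. Of 35 tested genes of lipid droplets and PPAR-type targets 29 were above 0, 8 of them at an unadjusted p under 0.05, beside the same 65.5% and 15.4% of all genes. Without RUVr factors 3 genes of this list were higher at that p. With them 2 were called higher, against 0.181% of all genes. These were Plin4 and the fatty acid transporter Cd36, which stayed at or below 0.119 CPM. Fkbp5 and Tsc22d3, both direct targets of the glucocorticoid receptor, were at -0.03 and 0.12.

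Other genes whose groups did not overlap over all wells were named by the rule for named genes, and none of those given here passed the test. On plain totals Naa50 and Mrpl49 did overlap. On the low side Myo10, a filopodial myosin, measured 0.957, 0.832, 2.505 and 3.505 CPM against 4.80, 16.5 and 31.5 CPM over all wells (-3.09, adjusted p = 0.199; -2.54 in neuronal wells). Naa50, an N-terminal acetyltransferase, was at -1.34 over all wells and -1.09 in neuronal wells (adjusted p = 0.105), Top1, topoisomerase I, at -1.40 and -0.89, Mrpl49, a mitochondrial ribosomal protein, at -0.69 and -0.44, Acer3, a ceramidase, at -0.97 and -0.52, and Ptgr2, a prostaglandin reductase, at -1.52 and -0.76. 2310014F06Rik and Lef1, a Wnt-pathway factor, had 0 reads in all 4 injured mice, but medians of only 1.81 and 0.286 CPM in naive mice. On the high side, with values over all wells and then in neuronal wells, were the zinc finger genes Zfp41 (5.93; 4.69) and Zfp688 (3.48; 3.63) and the nucleolar gene Rrp1b (3.67; 1.9). Calb2, a calcium-binding protein of some mechanoreceptors, had 7178, 877, 26422 and 36 reads after SCI and 0 to 3 in naive mice (adjusted p = 0.174), and its 9 neuronal wells after SCI ranged from 0.307 to 1630 CPM.

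No transcription factor of the regenerative response passed the test over all wells or in neuronal wells with all mice kept. In neuronal wells all 21 overlapped between the groups; over all wells 1 did not, Cebpb, named after its values were seen, with 0.147 to 0.974 CPM after SCI and 1.38 to 5.94 CPM in naive mice (-2.09, adjusted p = 0.42). Atf3 measured 119, 82.3, 22.4 and 334 CPM in neuronal wells after SCI against 27.2, 66.0 and 239 CPM at the lowest, median and highest naive mouse. The groups overlapped throughout (0.57, SE 0.68, adjusted p = 0.725), and over all wells, where a glia-rich well of SCI mouse 3 had 458 CPM, the value was 1.22 (SE 0.62, adjusted p = 0.426). Jun measured 102, 88.2, 41.7 and 71.5 CPM against 60.5, 76.1 and 227 CPM, again overlapping (-0.20, adjusted p = 0.779).

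Creb1, which binds cAMP response elements, measured 34.5, 29.6, 21.9 and 33.8 CPM against 0.26, 18.8 and 24.6 CPM. It came nearest to a call (1.62, SE 0.40, edgeR adjusted p = 0.129). In the neuronal-well fits that left out 1 mouse, its edgeR adjusted p ran from 0.0747 to 0.22. Under the other settings tried, its log2 fold change ran from -0.16 to 4.63. Whether Creb1 passed thus depended on the mice and settings. Over all wells 1 naive mouse held 137 CPM and the value was 0.61. Sox11 was at 0.63 (SE 0.51), Smad1 at 0.50 (SE 0.28) and Klf6 at 0.04 (SE 0.25) in neuronal wells, and none passed. Of 21 regeneration-associated transcription factors 0 were called over all wells or in neuronal wells, with 0 and 2 higher and 0 and 0 lower at an unadjusted p under 0.05. Of all genes 10.9% and 15.4% were higher at that p, and 1.81% and 2.13% lower.

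Genes of axon growth and axon injury were not called either. Gap43, a growth cone protein, measured 2.92, 6.78, 805 and 1482 CPM in neuronal wells after SCI and 3.64, 496 and 1682 CPM in naive mice. The injured mice of the set FACS were the low ones and those of FACS2018 the high ones, and the naive mice covered almost the same range. Stmn2, a tubulin-binding growth protein, was at 0.07 (SE 0.30) and Map3k12, the kinase DLK that relays axon injury, at -0.42 (SE 0.60). Of 25 tested axotomy-induced genes none was called in either fit. At an unadjusted p under 0.05, 2 were higher over all wells and 1 in neuronal wells, against 10.9% and 15.4% of all genes.

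**Figure D5:**
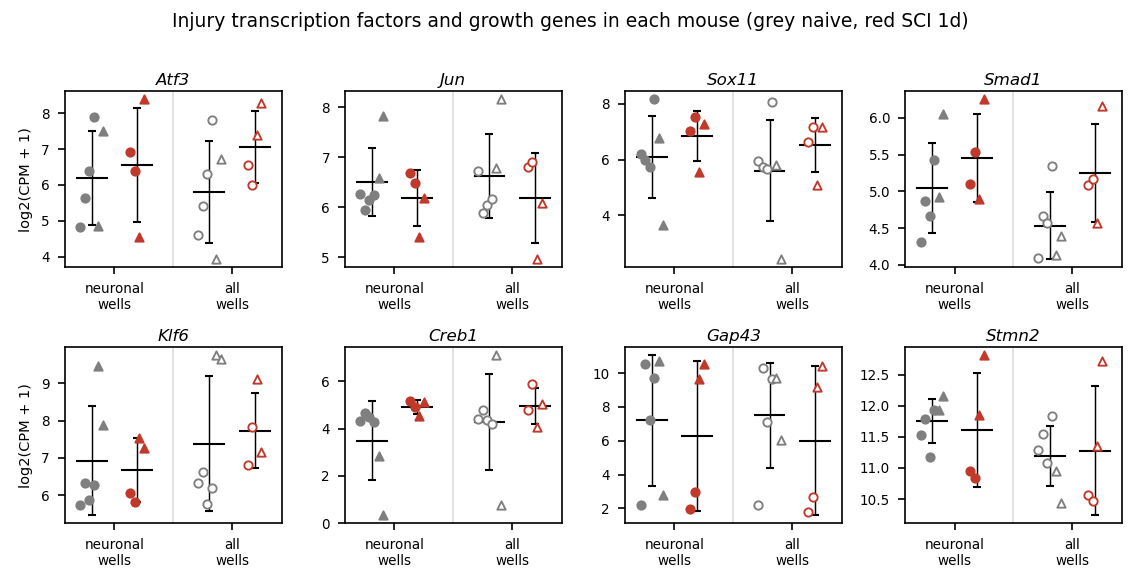
Log2(CPM + 1) of 6 injury transcription factors and 2 growth genes in each mouse, without glia-rich wells (filled, left) and over all wells (open, right); circles are mice of the set FACS, triangles mice of FACS2018, and bars give the mean with its SD. The red and grey points overlap in every panel.

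Markers of large sensory fibres and channel genes mostly lay above 0 in neuronal wells, without a call. Of 12 large-fibre markers 10 were above 0, against 65.5% of all genes (58.7% over all wells). Of these, 8 were at an unadjusted p under 0.05, against 15.4% of all genes. Of 13 sodium channel subunits 11 were above 0, 6 at an unadjusted p under 0.05, and 0 genes of either list were called. Scn1a, a sodium channel of large fibres, measured 420, 412, 381 and 225 CPM against 0.756, 328 and 496 CPM (1.05, SE 0.31, adjusted p = 0.152). Its lowest naive value came from mouse 5, without which the value was -0.0096. Ntrk3, the neurotrophin-3 receptor, was at 1.08 and Pvalb, a marker of proprioceptors, at 0.56. Without naive mouse 5 Ntrk3 was at 0.089 and Pvalb at -0.48. Without RUVr factors these 3 were at 0.22, 0.33 and -1.16, and the median of the large-fibre list went from 0.80 to 0.24.

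Tyrobp, a microglial adaptor of the macrophage marker list, was called higher in neuronal wells (3.58, adjusted p = 0.0887) at 0, 0, 0.178 and 0.0802 CPM against 0 to 0.693 CPM, where its highest value was in a naive mouse. None of the genes of the lists that follow passed the test there. Of all genes in neuronal wells, 65.5% were above 0, and at an unadjusted p under 0.05 15.4% were higher and 2.13% lower. Of 28 potassium channel subunits 21 were above 0, 8 of them at an unadjusted p under 0.05, and without RUVr factors 14 were above 0 and none reached that p. Of 14 calcium channel subunits 10 were above 0 and of 27 genes of synaptic vesicle release 18, with 0 and 6 higher at an unadjusted p under 0.05. Genes of growth cones and axonal cargo had 15 of 27 above 0, with 0 at an unadjusted p under 0.05, early response genes of activity and dissociation 8 of 22 with 1 lower, and genes of the integrated stress and unfolded protein response 19 of 28 with 2 higher and 2 lower. The respiratory chain had 42 of 75 above 0 and the cytosolic ribosomal proteins 60 of 78, with medians of 0.03 and 0.16, both below the 0.38 of all genes. Phospholipid and triglyceride synthesis had 15 of 28 above 0, with 4 higher and 2 lower at an unadjusted p under 0.05.

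In whole DRG of separate mice, 243 of 17616 genes were called higher (1.38%) and 165 lower (0.937%) 1 day after SCI. Hmgcs1 fell there too, from 907 ± 63.4 to 645 ± 64.8 CPM (SD, n = 4 and 4, log2 fold change -0.49, adjusted p = 0.0283), as did Stard4 (-0.48, adjusted p = 0.035), Mvd (-0.53, adjusted p = 0.0834) and Sqle (-0.36, adjusted p = 0.0811). Msmo1 (-0.34, adjusted p = 0.294), Cyp51 (-0.37) and Fasn (-0.33) did not pass. Mvk, which was above 0 in neuronal wells, fell in whole DRG (-0.41, adjusted p = 0.0399). Of the 13 post-farnesyl sterol genes 12 were below 0 there (46.9% of all genes), 3 were called and the median was -0.28.

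Genes that rose in whole DRG included Cirbp (0.54, adjusted p = 0.0119), Apod (0.83, adjusted p = 0.0148), Usp40 (0.38, adjusted p = 0.0314) and Mt2 (1.87, adjusted p = 0.0131). Plin4 rose from 3.29 ± 1.59 to 35.6 ± 5.94 CPM (3.44, adjusted p = 0.000535). Atf3 rose from 9.59 ± 1.18 to 50.5 ± 21.2 CPM (2.39, adjusted p = 0.00431) and Jun by 0.68 (adjusted p = 0.00893), whereas in sorted neurons neither passed; the 2 kinds of library were not compared in 1 fit. Of the 49 genes called in neuronal wells, 43 were tested in whole DRG, 8 were called there with the same sign and 0 with the opposite one. Of all genes in whole DRG, 1.38% were called higher and 0.937% lower. Of the 243 higher genes 227 were tested in neuronal wells, and 79.3% were above 0, beside 66.3% of all genes tested in both. Of the 165 lower genes 161 were tested, and 49.1% were below 0, beside 33.7%. Without RUVr factors these shares were 55.5% beside 43.5% and 68.9% beside 56.0%. Of the 20 glucocorticoid-responsive genes 11 were called higher in whole DRG, against 1.38% of all genes, among them Fkbp5 (0.56, adjusted p = 0.0358).

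The fit also holds a direct contrast of SCI 1d with SNI 1d. The naive mice are on neither side of it, but they share its TMM scaling, its estimate of the spread and its RUVr factors. Over all wells it called 0 genes by edgeR (0.0%), with 1047 higher (4.45%) and 1361 lower (5.79%) at an unadjusted p under 0.05; DESeq2 was not run on it. In neuronal wells 40 genes were higher (0.177%) and 161 lower (0.712%) after SCI than after SNI, with 1324 (5.85%) and 1692 (7.48%) at an unadjusted p under 0.05. Sqle was lower after SCI, at 60.1 to 95.3 CPM in 4 mice against 148 to 298 CPM in the SNI mice (log2 difference -1.38, SE 0.28, adjusted p = 0.0479), and the 13 post-farnesyl sterol genes had 11 below 0, 8 of them at an unadjusted p under 0.05, 2 called and a median of -0.65. Sox11 (-3.10, adjusted p = 0.0416), Klf6 (-1.82, adjusted p = 0.0166), Tubb6, a beta-tubulin (-3.32, adjusted p = 0.0981), and Myo10 (-3.89, adjusted p = 0.035) were lower after SCI. Cidea, a lipid droplet protein (4.64, adjusted p = 0.0702), Tsc22d3 (1.24, adjusted p = 0.0166) and 9330162G02Rik (1.33, adjusted p = 0.0492) were higher. Of the 21 regeneration-associated factors 17 were lower after SCI than after SNI, 9 of them at an unadjusted p under 0.05, and 2 were called. Of 25 axotomy-induced genes 24 were lower, 13 at an unadjusted p under 0.05, and 2 were called. Atf3 was at 754 to 1814 CPM in neuronal wells of SNI mice, and its difference was -3.20 (SE 0.82, adjusted p = 0.11). Hmgcs1 (-0.48), Msmo1 (-0.65) and Stard4 (-1.55) did not pass in this contrast.

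SNI 1d and SCI 3d share the naive mice with SCI 1d, so their values against naive are given only side by side. In neuronal wells Hmgcs1 was at -1.0, -0.52 and -0.22 for SCI 1d, SNI 1d and SCI 3d, Stard4 at -1.83, -0.28 and -0.76, and Cirbp at 1.61, 0.80 and 0.33. SCI 3d mouse 3 took no part there, since all 3 of its wells were glia-rich. The contrast of SCI 1d with SCI 3d called 0 genes by edgeR over all wells and in neuronal wells (0.0% each). At an unadjusted p under 0.05, 1816 genes were higher (7.73%) and 692 lower (2.94%) over all wells, and 448 (1.98%) and 797 (3.52%) in neuronal wells. DESeq2 was not run on it either.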

How the data were processed

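Reads were trimmed with cutadapt, aligned with STAR 2.5.3a to mm10 and counted per gene with HTSeq 0.6.1 by the authors, who deposited raw read counts. The strand setting is not given in the sources used here. Some mice were removed by the authors as outliers and cannot be told from the labels. The 123 normalized columns of the series tables and the columns of the authors' own comparisons (fold changes and p-values) were not used. The 5 lines per file that name no gene were left out. Of 53379 genes 53274 had a GENCODE M21 symbol; Faxdc2 did not match.

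Counts of the 3 wells of a mouse were summed. The 22 sorted mice were fitted together with edgeR 4.0.16 (R 4.3.3, TMM, quasi-likelihood test, 2 RUVr factors, genes with at least 20 reads in 1 mouse, Benjamini-Hochberg adjusted p under 0.1). Every adjusted p printed is from edgeR's quasi-likelihood test in the fit it is given for, except the smallest adjusted p of the permutation test. Counts of genes called by DESeq2 used its own adjusted p. In the fits with RUVr factors, p-values measure only the spread between mice that is left after these factors, which were taken from the same mice. Whole DRG was fitted apart, without RUVr factors, for genes with a mean of at least 10 reads. CPM of a mouse are reads relative to its TMM-scaled total of reads on genes, CPM of a well are relative to the well's own total, and marker percentages are shares of that total. Whether mice overlap was read on the TMM scale, with plain totals as an alternative added after the values were seen. Single genes also had the exact permutation test on log2(CPM + 1). The code was tested on simulated data. Glia-rich wells hold at least 2% of reads on glial markers. The other wells were fitted again, with 20 mice, since mice whose 3 wells were all glia-rich dropped out. Same-numbered mice of a set were not paired: their deviations correlated at 0.0419, -0.0185 and 0.1007.

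Named genes were those called; the 8 per direction with the smallest p among genes without overlap and at least 5 CPM, in both fits; genes the study discusses; markers; and up to 3 per list and direction. Members, lists and rules were chosen with earlier results of these data known. Sequences are from RefSeq (GRCm38.p6). DESeq2 1.42.0 was the alternative count model, with limma 3.58.1 loaded by edgeR. Tables and plots were made in Python 3.11.15 (scipy 1.17.1, pandas 2.3.3, matplotlib 3.10.9, numpy 2.4.6). Some genes of these lists are not reported here by name.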

Additional observations from a re-analysis of the deposited data

Results flagged for a closer look

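Chance alone sets a library apart in about 1 of 20 groups of this size. Over all wells, naive mouse 5 stood apart from the other naive mice on the high side for Chrnb4 (46.66 CPM), Ptgr2 (196.0 CPM), Top1 (307.5 CPM), Acer3 (190.0 CPM), Cirbp (135.9 CPM), Ccnc (359.6 CPM) and Map3k12 (44.27 CPM). It stood apart on the low side for Rrp1b (0.1007 CPM), Cidea (0.02517 CPM), Scn1a (0.8809 CPM), Ntrk3 (0.9816 CPM) and Tubb6 (0.6041 CPM). This mouse has 2 glia-rich wells of 3. Naive mouse 6, with 2 such wells too, stood apart for Usp40 (48.52 CPM), Tm7sf2 (12.98 CPM), Mvk (0.1821 CPM), Plin4 (0.07804 CPM) and Calb2 (0.07804 CPM), the last a pair of genes at 0 in most naive mice. Naive mouse 2 was high for Fasn (82.0 CPM).

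Among injured mice, SCI mouse 4 stood apart for Chrnb4 (44.38 CPM) and Il15 (2.903 CPM), SCI mouse 2 for Dhcr7 (8.387 CPM) and SCI mouse 3 for Snhg5 (167.7 CPM).

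In neuronal wells the change after SCI differed from that after SNI, by the direct contrast of the 2 injuries (edgeR adjusted p under 0.1), for Myo10 (-3.887), Klf6 (-1.817), Sox11 (-3.101), Sqle (-1.382), Ebp (-1.568), Tubb6 (-3.318), Cidea (4.639), 9330162G02Rik (1.328) and Tsc22d3 (1.241), as log2 differences. None of these passed over all wells.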

How the results depend on the processing

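The count of called genes, 4 over all wells, moved with most choices. It was 1 at an adjusted p under 0.05, with 1 RUVr factor, with no RUVr factor, with residuals not centred or with the label set as a term, 2 with at least 20 reads in 4 mice or with naive mice of day 1 only, 22 without a count filter and 10 with DESeq2 size factors. DESeq2 called 1223. The set FACS alone gave 12 and FACS2018 alone 0 (edgeR). With the replicate block 1 gene was called, although the numbers were not taken as pairs. Of genes at an unadjusted p under 0.05, 85.7% were higher with RUVr factors and 50.9% without. Leaving out 1 mouse gave 1 to 4, with 1 without SCI mouse 2 or naive mouse 5. Without glia-rich wells the count was 49, and then 7 (without SCI mouse 2) to 536 (without naive mouse 3) leaving out 1 mouse. Within those wells DESeq2 called 1746, the label set as a term 1712, naive mice of day 1 only 1351, the set FACS 0, the set FACS2018 337 with 1 residual degree of freedom, and no RUVr factor 0. The cause of these shifts was not tested.

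The log2 fold changes of the named genes changed sign in 198 cases. Over all wells the values with the other sign were Pvalb -0.49 with 1 RUVr factor, and with residuals not centred Creb1 -0.14, Map3k12 0.31, Pvalb -0.61, Ntrk3 -0.16, Tyrobp 0.10, Fkbp5 -0.64 and Lbr -0.75. No RUVr factor gave Klf6 -0.34, Creb1 -0.16, Pvalb -0.39, Tubb6 -0.060 and Fkbp5 -0.0022. The label set as a term gave Mrrf -0.14 and Mvk 0.087, the replicate block Mrrf -0.17, Stmn2 -0.13 and Mvk 0.026, naive mice of day 1 only Creb1 -0.14, Fkbp5 -0.33 and Lbr -0.28, and a fit of the 10 mice alone Gap43 0.17, Map3k12 0.20 and Mvk 0.52. The set FACS gave Mrrf -0.86, Atf3 -0.031, Jun 0.75, Stmn2 -0.88, Map3k12 0.46, Scd2 0.043, Cidea -1.21, Tubb6 -0.96 and Insig1 0.097. The set FACS2018, with naive mice 5 and 6 only, gave Usp40 -0.19, Apod -0.082, Polr3k 0.24, Klf6 -1.45, Gap43 1.76, Dhcr7 0.42, Hsd17b7 0.010, Fkbp5 -0.72, Tsc22d3 -0.60, Mvk 3.1, Snhg5 -0.45 and Lbr -0.48.

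In neuronal wells the values with the other sign than over all wells were Mrrf -0.88, Gap43 0.87, Tyrobp 3.58, Fkbp5 -0.030, Mvk 0.51, Lbr -0.25 and Cd36 3.04. There DESeq2 gave Mrrf -0.87, Gap43 0.87, Tyrobp 2.59, Fkbp5 -0.014, Mvk 0.50, Lbr -0.23 and Cd36 20.37 (Cd36 stayed at or below 0.119 CPM). The set term gave Mrrf -1.01, Klf6 -0.32, Stmn2 -0.24, Fkbp5 -0.095, Mvk 0.81 and Lbr -0.14. Day 1 only gave Chrnb4 -0.97, Mrrf -0.83, Jun 0.056, Klf6 -0.21, Stmn2 -0.14, Tyrobp 1.5, Fkbp5 -0.44, Lbr -0.63 and Cd36 0.44, and no RUVr factor Chrnb4 -0.39, Mrrf -1.14, Klf6 -0.81, Pvalb -1.16, Fkbp5 -0.51, Lbr -0.24 and Cd36 2.17. The set FACS gave Mrrf -0.69, Jun 0.46, Klf6 -0.081, Stmn2 -0.69, Map3k12 0.62, Cidea -1.06, Tubb6 -0.77, Lss -0.072 and Lbr -0.14, and FACS2018, where naive mice 5 and 6 have 1 neuronal well each, Mrrf -1.63, Klf6 -1.18, Gap43 3.75, Dhcr7 0.53, Tyrobp 1.64, Fkbp5 -1.49, Mvk 3.47 and Cd36 2.27. Over the fits of either kind that left out 1 mouse, Polr3k ran from -0.84 to 0.12, Mrrf from -0.98 to 0.41, Atf3 from -0.39 to 1.88, Jun from -0.50 to 0.084, Klf6 from -0.23 to 1.04, Gap43 from -2.67 to 1.45, Stmn2 from -0.44 to 0.53, Map3k12 from -1.15 to 0.72, Scn1a from -0.0096 to 1.59, Pvalb from -0.56 to 1.38, Ntrk3 from -0.016 to 1.43, Tubb6 from -0.30 to 2.20, Tyrobp from -4.33 to 10.03, Fkbp5 from -0.31 to 0.48, Mvk from -0.90 to 0.89, Lbr from -0.42 to 0.80, Ebp from -1.18 to 0.066 and Cd36 from -10.15 to 3.92. Of all other log2 fold changes of named genes under the alternatives, 2290 kept their direction and side of the threshold, 327 passed it newly and 95 lost it. The group difference behind the exact two-sided permutation test also changed sign in neuronal wells for Klf6 (p = 0.762), Stmn2 (p = 0.705), Map3k12 (p = 0.314), Fkbp5 (p = 0.83), Lbr (p = 0.676) and Cd36 (p = 0.467), and with log2(CPM + 5) for Mvk (p = 0.867).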
